A study of Mus musculus with 4 samples.

Results

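The regions described here are stretches of the mouse autosomes, chromosomes 1 to 19, with a CTCF peak call in TFII-I knockdown cells and in no control library. CTCF, a protein with zinc fingers, occupies insulators, boundaries of chromatin loops and many gene promoters, and its sites are largely shared between cell types. TFII-I, encoded by Gtf2i, is a transcription factor known to bind initiator elements at gene starts. The study measured CTCF by chromatin immunoprecipitation and sequencing in 2 libraries of WEHI-231 cells with a stable TFII-I knockdown and in 2 libraries of WEHI-231 control cells. WEHI-231 is a mouse B cell lymphoma line, labelled as of (BALB/c x NZB)F1 origin, and all 4 libraries were precipitated with the same CTCF antibody. The series design text names an shTFII-I construct, and the title asks whether TFII-I targets CTCF to promoters. The sources used here do not say what the control cells carry or whether the knockdown line is a single clone. Whether the replicates were separate cultures is not stated either, and their spread may be technical only.

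Peaks of the 4 deposited lists that shared at least 1 bp were merged, which gave 29116 regions, 28181 of them on autosomes. Members were chosen by their peak calls: a region was one if it held a peak of knockdown 1, knockdown 2 or both and no peak of either control. There were 1575 such knockdown-only regions, 5.59% of the 28181 autosomal regions. The mirror class, called in at least 1 control and in no knockdown library, held 7097 control-only regions (25.2%). These calls chose the members, so counts and scores are given as a description with no test. The lists of knockdown 1 and knockdown 2 held 18484 and 14852 autosomal peaks, against 23789 and 23203 in control 1 and control 2. Sequencing depth is not given in the sources used here. A list from fewer reads holds fewer calls, so a missing call in a library is not an absence of CTCF there. The degree of knockdown was not analysed here, and regions are given by position in the build mm9, without gene names, sequence or motifs.

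Knockdown-only peaks made up 5.48% (95% Clopper-Pearson interval 5.16 to 5.82%) of the autosomal peaks of knockdown 1 and 4.61% (4.28 to 4.96%) of those of knockdown 2. Control-only peaks made up 22.0% (21.5 to 22.5%) of the list of control 1 and 21.0% (20.4 to 21.5%) of that of control 2. The intervals cover counting error over peaks only. The group means were 5.05 ± 0.614% for knockdown and 21.5 ± 0.717% for control (SD, n = 2 each). These percentages are set by the same calls that chose the members, so they are a description only. The number of members rested on each library. Without knockdown 1 there were 685 knockdown-only regions and without knockdown 2 there were 1013, while without control 1 or control 2 there were 2806 and 2593. The order of the classes turned at equal list length, and the cause of this was not tested. When each list was cut to its 15309 strongest peaks, the length of the shortest, 3895 autosomal regions were knockdown-only and 2791 were control-only. Of those 3895 regions, 2892 (74.2%) overlapped a peak of a full control list, and 830 of the 2791 (29.7%) overlapped one of a full knockdown list.

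Few of the knockdown-only regions were called in both knockdown libraries. A single library called 1452 of them, 890 in knockdown 1 alone and 562 in knockdown 2 alone. The other 123 regions were called in both, 7.81% (6.53 to 9.25%) of the members and 0.436% of autosomal regions. Of the 7097 control-only regions, 2992 were called in both controls, which was 42.2% (41.0 to 43.3%) of that class and 10.6% of autosomal regions. Regions with calls in both groups gave the same order, with 61.3% of 19509 called in both knockdown libraries and 88.5% called in both controls. Among regions with 2 knockdown calls, 1.02% of 12083 had no control call, and among regions with 2 control calls, 14.8% of 20252 had no knockdown call. The count called in both knockdown libraries was 406 without control 1 and 352 without control 2. At equal list length it was 750 of 3895 knockdown-only regions, and 882 of 2791 control-only regions were then called in both controls. Where both knockdown libraries called a member, its 2 peaks lay close together, which the merging of overlapping peaks in part imposes. The centres of the 2 peaks lay a median of 49.5 bp apart over the 123 regions, against 47.5 bp for the knockdown pair over the 11448 autosomal regions called in all 4 libraries. The median over the 2992 control-only regions called in both controls was 47.0 bp.

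**Figure D1:**
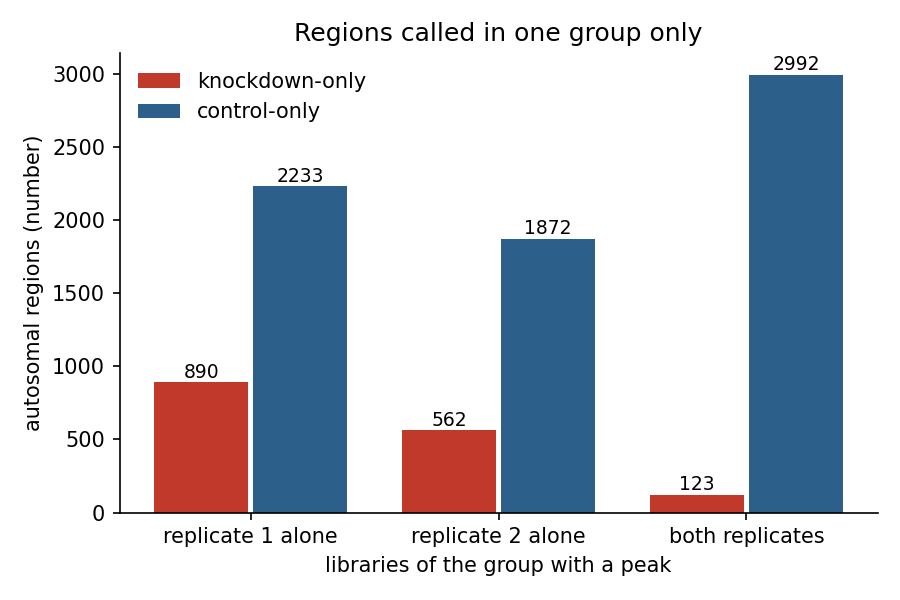
Number of autosomal regions (vertical axis) called in replicate 1 alone, replicate 2 alone or both replicates of a group (horizontal axis), for knockdown-only regions (red) and control-only regions (blue). Knockdown-only regions fall mostly in the single-library bars, 890 and 562 against 123, while 2992 control-only regions were called in both controls.

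The members were weak peaks of their own lists. The authors' score, a value per peak that starts at 50 in these lists and reaches 3100, had a median of 58.2 in knockdown 1 and 59.0 in knockdown 2 over knockdown-only peaks. The other autosomal peaks of the same lists had medians of 87.8 and 80.5. Members stood at median percentiles of 14.0 and 16.7 of their lists, and control-only peaks at 20.4 and 20.02 of control 1 and control 2. A score of 100 or more was reached by 23 of 1013 knockdown-only peaks in knockdown 1 (2.27%) and by 14 of 685 in knockdown 2 (2.04%). Over all autosomal peaks of these lists that share was 35.7% and 28.4%. Among control-only peaks it was 19.01% in control 1 and 16.8% in control 2, in lists where 57.5% and 55.8% of autosomal peaks reached it. Since scores are not comparable between lists, each share holds within its list.

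The share of peaks without a call in the other group fell with strength in every list. In the weakest decile of knockdown 1, 21.6% (19.8 to 23.6%) of peaks were knockdown-only, and in that of knockdown 2, 14.9% (13.2 to 16.9%). In decile 5 the shares were 3.14% and 3.10%. The strongest decile of each knockdown list held 1 member. In the controls the weakest decile was 60.1% and 58.3% control-only, and the strongest decile held 9 and 14 control-only peaks. The 2 weakest deciles together held 635 of the 1013 members' peaks in knockdown 1 (62.7%) and 384 of 685 in knockdown 2 (56.1%), against 49.8% and 50.3% of control-only peaks in control 1 and control 2.

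**Figure D2:**
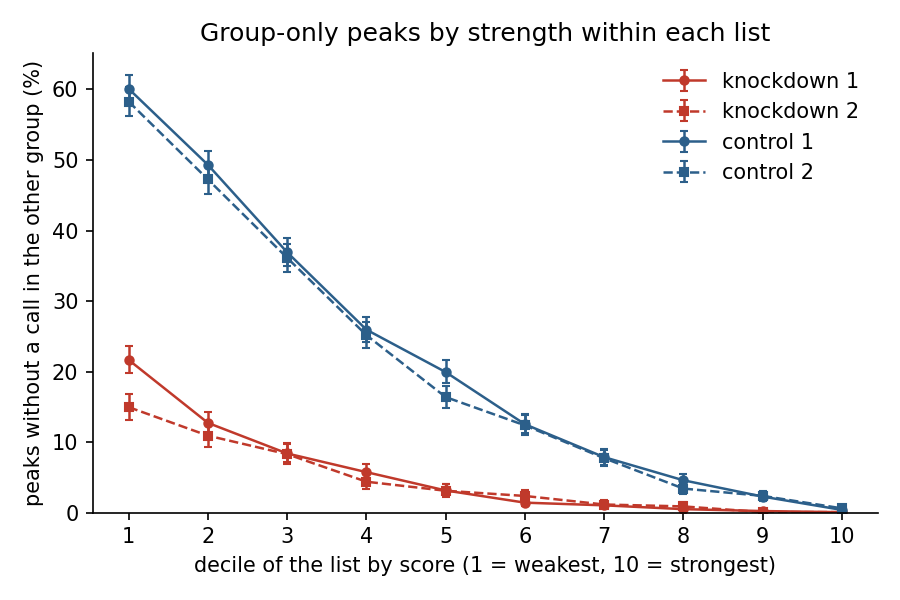
Percentage of autosomal peaks without a call in the other group (vertical axis) by decile of each list ranked by the authors' score, from weakest to strongest (horizontal axis), in knockdown 1 and 2 (red) and control 1 and 2 (blue). Bars are 95% Clopper-Pearson intervals. Every list declines, from 21.6% and 14.9% in the weakest decile of the knockdown lists and from 60.1% and 58.3% in that of the controls.

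Members called in both knockdown libraries scored somewhat higher than those called in one. Their median score was 62.6 in knockdown 1, against 57.9 for members called in knockdown 1 alone, and 63.0 in knockdown 2, against 58.1 for members called in knockdown 2 alone. At least 1 score of 100 or more was found in 12 of the 123 regions, and none of the 123 reached 100 in both libraries (upper limit 2.95%). The percentile of a member in knockdown 1 was hardly related to that in knockdown 2, with a Pearson r of 0.0720 and a Spearman rho of 0.0476 over the 123 regions. Over all-library regions the knockdown pair had an r of 0.336 and the control pair 0.575, and over control-only regions called in both controls the control pair had an r of 0.382. These are descriptions across regions of the same libraries, and the members span a narrow range of scores.

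**Figure D3:**
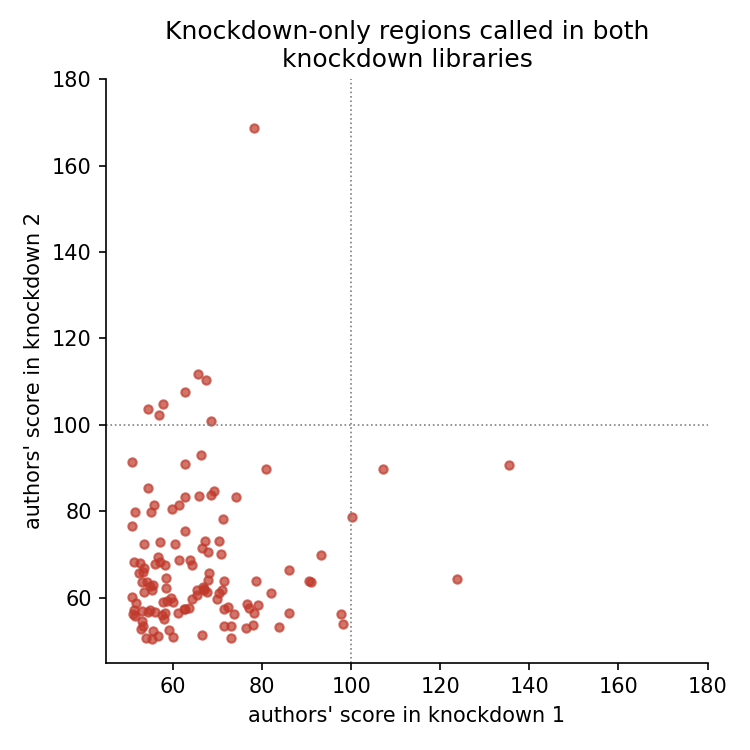
The authors' score in knockdown 2 (vertical axis) against that in knockdown 1 (horizontal axis) for the 123 knockdown-only regions called in both, 1 point per region, with dotted lines at a score of 100. No point lies above 100 on both axes, and 12 lie above it on one.

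The strongest members called in both libraries were spread over several chromosomes. The region with the highest mean percentile, on chromosome 3 from 148715344 to 148715813, scored 135 in knockdown 1 and 90.8 in knockdown 2. It had no other region within 100 kb and no all-library region within 250 kb, and its nearest control peaks lay 296658 bp away in control 1 and 217598 bp away in control 2. The next, on chromosome 11 from 97808817 to 97809053, scored 78.1 and 169 and was narrow, with peaks of 155 and 237 bp. This was the single member in the strongest decile of knockdown 2. Its surroundings were crowded, with 8 other regions within 100 kb, 3 of them called in all 4 libraries and 2 of them control-only. Chromosome 10 had a member from 79371597 to 79372116 with scores of 107 and 89.8, which lay among 12 regions within 100 kb, 7 called in all 4 libraries. These 3 members thus ranged from an empty stretch to a crowded one.

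Of the remaining 5 in this set, 2 stood at a higher percentile of the list of knockdown 1 and 3 at a higher percentile of that of knockdown 2. Chromosome 16 held one from 35967459 to 35967905, which had scores of 100.2 in knockdown 1 and 78.7 in knockdown 2. The one on chromosome 6 from 64634988 to 64635494 scored 124 and 64.4, which were percentiles 80.4 of knockdown 1 and 27.1 of knockdown 2. On chromosome 2, a member from 13859842 to 13860127 had scores of 80.8 and 89.8 and lay 82261 bp from the nearest peak of control 1 and 82300 bp from that of control 2. A second region of chromosome 2, from 118850346 to 118850705, scored 67.3 and 110.3. It lay 9376 bp from a control 2 peak and had 2 other knockdown-only regions within 100 kb, more than any other of the 8. The last lay on chromosome 15 from 35093779 to 35094286. It scored 65.5 in knockdown 1 and 112 in knockdown 2, and its single neighbour within 100 kb was control-only. The member on chromosome 3 stood at percentiles 85.4 of knockdown 1 and 63.5 of knockdown 2, and the leading one on chromosome 11 at 41.6 and 95.6. The strongest control-only region called in both controls, on chromosome 17 from 28300469 to 28301060, stood at percentiles 93.9 of control 1 and 95.1 of control 2.

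Among members called in knockdown 1 alone, the highest score was 187. It belonged to a region of 2983 bp on chromosome 11 from 3097246 to 3100228, which was the single member in the strongest decile of that list. The others of the leading 4 were on chromosome 1 from 84982695 to 84983195 with a score of 143, on chromosome 6 from 34024106 to 34024344 with 124, and on chromosome 7 from 122065801 to 122065943 with 121. The region on chromosome 7 spanned 143 bp, the narrowest of all 1575 members. In knockdown 2 alone, the leading score was 116, in a region of 2251 bp on chromosome 9 from 3003864 to 3006114 that lay 680 bp from a control 1 peak. It was followed by chromosome 5 from 117564551 to 117565038, chromosome 8 from 56189530 to 56189747 and chromosome 4 from 8294536 to 8295094, which each scored 111. The region on chromosome 8 had no other region within 100 kb and lay 273961 bp from the nearest control peak. The leading single-library members thus ranged in width from 143 to 2983 bp.

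Peak width does not enter the rule. Knockdown-only peaks had median widths of 287 bp in knockdown 1 and 410 bp in knockdown 2, and control-only peaks had 428 bp in control 1 and 446 bp in control 2. The 2 groups did not overlap, with means of 348.5 ± 87.0 bp for knockdown and 437 ± 12.7 bp for control (SD, n = 2 each). The 2 knockdown libraries lay further from each other than the group means did, and knockdown 2 lay close to control 1. The difference of -88.5 bp had p = 0.333 in a two-sided exact permutation test, the smallest p that 2 libraries against 2 allow, so it could not pass 0.05. A difference of that kind was present outside the members as well. In regions called in all 4 libraries, median widths were 342 and 454 bp in the knockdown libraries and 518 and 542 bp in the controls, a difference of -132 bp (p = 0.333, two-sided exact permutation test). Relative to the other autosomal peaks of the same list, knockdown-only peaks were 86.7% and 91.5% as wide and control-only peaks 85.8% and 85.1% as wide. Members of over 1 kb were rare, at 6 of 1575 (0.381%, 0.140 to 0.827%), against 0.197% of control-only and 1.81% of all-library regions.

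**Figure D4:**
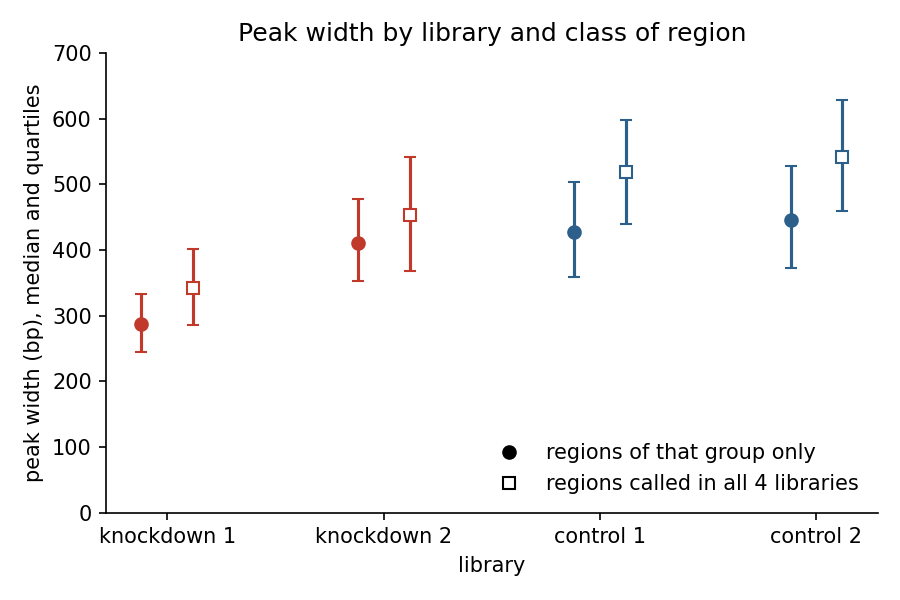
Peak width in bp (vertical axis; points are medians and bars the quartiles) in each library (horizontal axis), for peaks in regions of that group only (filled circles) and in regions called in all 4 libraries (open squares). Knockdown-only peaks have medians of 287 and 410 bp and control-only peaks 428 and 446 bp, and in each library the all-library peaks are wider.

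In their distance from regions called in all 4 libraries, members and control-only regions differed by less than the spread between replicates. The median centre to centre distance to the nearest such region was 36554 bp and 38142 bp for members of knockdown 1 and knockdown 2, and 37081 bp and 37844 bp for control-only regions of control 1 and control 2. The difference of means was -114.5 bp (p = 1, two-sided exact permutation test, n = 2 each), and its sign turned under several alternatives. A median of 4 all-library regions lay within 250 kb in every library of either class. No all-library region lay that close to 10.1% (8.65 to 11.7%) of members, 9.10% (8.44 to 9.80%) of control-only regions and 5.43% (5.03 to 5.86%) of all-library regions. The nearest neighbouring region was an all-library region for 41.9% of members, 40.1% of control-only regions and 40.9% of autosomal regions. It was another knockdown-only region for 7.75% of members, against 5.41% of autosomal regions, and a control-only region for 23.6% of members, against 24.6%.

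**Figure D5:**
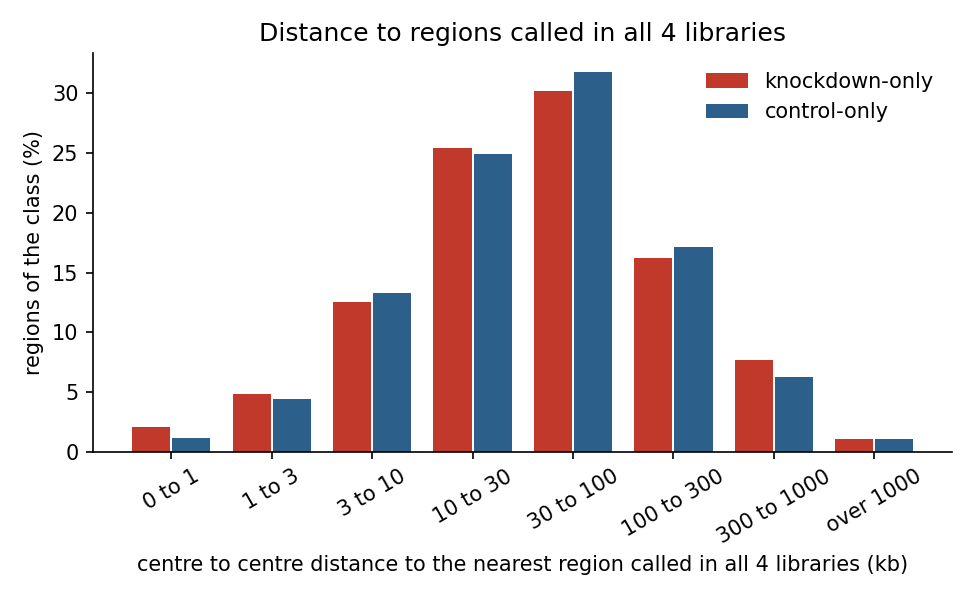
Percentage of regions of each class (vertical axis) by centre to centre distance in kb to the nearest region called in all 4 libraries (horizontal axis, uneven bins), for knockdown-only (red) and control-only regions (blue). The profiles lie close to each other, with 30.2% of knockdown-only and 31.8% of control-only regions at 30 to 100 kb.

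Some members stood beside a control peak without touching it. A control peak lay within 1 kb of 114 of the 1575 members (7.24%, 6.01 to 8.63%), and a knockdown peak lay within 1 kb of 4.49% (4.02 to 5.003%) of control-only regions. The 2 shares are not like for like, as the control lists held more peaks than the knockdown lists. Of the 114 members, 90 stood beside a control peak that itself had a knockdown call, and 57 beside a region called in all 4 libraries. The member nearest to a control peak, on chromosome 6 from 35012069 to 35012281, was called in knockdown 1 with a score of 60.04 and lay 12 bp from a control 1 peak and 10 bp from peaks of both control 2 and knockdown 2. The next 3 lay 37, 48 and 54 bp from one, on chromosomes 11, 18 and 13, with scores between 53.5 and 56.7. Just outside the rule, the regions whose knockdown and control peaks shared the fewest bases at their best overlap shared 93 bp on chromosome 19 from 6260324 to 6261244, and 138, 141 and 148 bp on chromosomes 14, 10 and 12. Another edge of the rule was a single control call. There were 512 regions with 2 knockdown calls and 1 control call, whose control score had a median of 81.3, and 1737 with 1 of each, with a median of 69.2. Of these control calls, 100 of 512 and 503 of 1737 scored under 60.

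Over the autosomes, the members were spread nearly in proportion to all regions. Knockdown-only regions made up between 4.92% (3.60 to 6.55%) of the regions of chromosome 19 and 6.49% (4.90 to 8.40%) of those of chromosome 18. These chromosomes were picked as the lowest and highest, and the intervals cover counting error over regions only. An even spread was not tested. The background over all autosomes was 5.59%. Chromosome 18 held 53 members, 36 with a peak in knockdown 1 and 23 with one in knockdown 2, and chromosome 19 held 44, with 26 and 19. Control-only regions made up 22.6% of the regions of chromosome 3, the lowest share, and 27.0% of those of chromosome 12, the highest.

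Position within chromosomes was read from the start, the end that carries the centromere in mouse chromosomes, a measure chosen after the lists had been seen. Of the members of knockdown 1 and knockdown 2, 3.16% and 2.48% lay in the first 5 Mb, against 1.32% and 1.21% of the control-only regions of control 1 and control 2. The groups did not overlap, with means of 2.82 ± 0.479% and 1.27 ± 0.0761% (SD, n = 2 each; p = 0.333, two-sided exact permutation test, the smallest possible). The whole lists differed less, with 1.89% and 1.86% of the regions of knockdown 1 and 2 and 1.69% and 1.64% of those of control 1 and 2 in these stretches. All 1575 members had 47 regions there, spread over 17 chromosomes, with 5 each on chromosomes 12, 16 and 19. Of the 6 members wider than 1 kb, 3 were among the 47, a pair on chromosome 11 and 1 on chromosome 9. Of the 123 members called in both libraries, 2 lay in the first 5 Mb (1.63%, 0.198 to 5.75%).

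A few places held many members. Divided into windows of 1 Mb, the autosomes had 2181 windows with a region and 987 with a knockdown-only region, 597 of which held 1. A total of 15 windows held 5 or more, 91 members in all. Windows were ranked by number of members, not by share of regions, and differed in how many regions they held. Over all autosomes, 5.59% of regions were members. The fullest window, chromosome 8 from 19 to 20 Mb, held 13 members among 75 regions, with 32 all-library and 7 control-only regions. Of the 13, 11 had a peak in knockdown 1, 3 had one in knockdown 2 and 1 had both, with highest scores between 50.3 and 95.3. In that window knockdown 1 and knockdown 2 had 66 and 45 peaks, and control 1 and control 2 had 52 and 58. The windows named here were picked for their members, which by rule hold no control peak. Peak counts per library in them follow in part from that choice and are a description only. Members of this window lay a median of 1086 bp from the nearest control peak.

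The next 2 windows also held more members with a peak in knockdown 1 than in knockdown 2. Over all 1575 members these numbers were 1013 and 685. Chromosome 5 from 15 to 16 Mb held 9 members among 23 regions, all 9 called in knockdown 1 and none in knockdown 2, with scores between 51.1 and 63.8. The libraries had 18 and 9 peaks there in knockdown 1 and 2, and 12 and 11 in control 1 and 2. Window edges were fixed and could cut through a run of members. Just below 15 Mb lay members called in knockdown 1 alone and a member called in both libraries. The latter scored 78.6 in knockdown 1 and 63.8 in knockdown 2, so the lack of knockdown 2 calls holds for the window only. Chromosome 1 from 85 to 86 Mb held 7 members among 33 regions, 5 called in knockdown 1 and 2 in knockdown 2, with a median score of 53.7. Its peaks numbered 24 and 11 in the knockdown libraries and 22 and 21 in the controls. Below 85 Mb, outside this window, lay the member named above with a score of 143 in knockdown 1. A member called in both libraries, with scores of 70.2 in knockdown 1 and 73.2 in knockdown 2, lay there too. Together the 3 windows held 29 members, 25 with a peak in knockdown 1, 5 with one in knockdown 2 and 1 with both, and 1546 members lay elsewhere. The repeat content of these windows was not analysed here, and its part in the calls was not tested.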

How the data were processed

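The authors deposited 1 list of CTCF peaks per library, with position and a score per peak. MACS stands in the peak names, and per the submitters' processing notes BWA and HOMER were used, on build mm9. Versions, parameters and any input library were not given in the sources used here. Scores, as deposited, were read within a list, and libraries were set side by side by percentile or by the share of each list past a score. Peaks of all lists sharing 1 bp or more were merged, and regions on chromosomes 1 to 19 were classed by the libraries with a peak. Shares have exact 95% Clopper-Pearson intervals, and library medians were compared by exact two-sided permutation tests. The members and all rules were chosen with earlier results of these data known. Named regions are the 8 members called in both knockdown libraries and the 4 called in each alone with the highest percentile, the first control-only region by the same rule, the members nearest a control peak, and the 3 windows of 1 Mb with most members. The planned search for a CTCF motif was not run, as no mm9 sequence was used here. Merging and classing were checked on lists made from well-separated peaks of control 1, with known removals and small shifts. Closely spaced peaks were not covered by this check. All steps were run with numpy 2.4.6, scipy 1.17.1, pandas 2.3.3 and matplotlib 3.10.9 under python 3.11.15.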

Additional observations from a re-analysis of the deposited data

How the results depend on the processing

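Counts and shares stayed within 1.5 times of, or within 1 SD of, the reported values when peaks within 500 bp were merged, peak centres within 500 bp counted as shared, regions over 1 kb were left out, or regions within 1 kb of a peak of the other group were left out. With a reciprocal overlap of 50% there were 3121 knockdown-only regions, 187 of them called in both libraries, and the percentage of group-only peaks differed by -15.3 points between knockdown and control, against -16.4 as reported. With a score of 100 or more there were 37 knockdown-only and 1447 control-only regions, 12 and 1232 of them called in both libraries, and the percentages differed by -5.56 points. At equal list length these counts were 3895 and 2791, with 750 and 882 called in both, and the percentages differed by 3.37 points, a turned sign. The score filter left out group-only regions whose highest score was under 100, with all other regions and peaks kept. Scores are not comparable between lists. A score of 100 was reached by 35.7% and 28.4% of autosomal peaks of knockdown 1 and 2, and by 57.5% and 55.8% of those of control 1 and 2. The cut to equal length left out the weakest peaks of the longer lists. The causes of these changes, and of the change with reciprocal overlap, were not tested. The number of all-library regions within 250 kb, equal in both groups, differed by -0.5 at a score of 100 and with a window of 1 Mb. The distance to the nearest all-library region, at -114.5 bp, turned to 890 bp with peaks within 500 bp merged, 2117 bp at a score of 100, 79.2 bp without regions over 1 kb and 809 bp without regions near a peak of the other group, so no direction is read from it. Leaving out 1 library gave 685 to 2806 knockdown-only and 4864 to 12479 control-only regions. Those called in both numbered 352 to 406 and 4526 to 7270, the percentages differed by -37.5 to -11.4 points, the widths by -161.5 to -49.0 bp, the number within 250 kb by -1 to 0 and the distance by -2320 to 4939 bp. The width difference kept its sign in every setting. With a replicate block the width difference stayed at -88.5 bp (exact sign-flip p = 0.5, the smallest that 2 pairs allow) and that of percentages, which is set by the calls and was not tested, at -16.4 points; deviations of same-numbered libraries had a correlation of 0.0145 over 11448 regions. Depth was not given, so a region without CTCF in a library cannot be told from one whose peak fell under the lowest score listed.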
